A study of Mus musculus with 48 samples.

Results

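Shortening of the poly(A) tail by the CCR4-NOT complex is the first step in the decay of most mRNAs. The 10 genes described here encode parts of that step and were taken from a fixed list of names matched to the gene symbols of 23862 listed gene IDs. This list was chosen with earlier results of these data known. The genes comprise 7 adaptors, which are Zfp36, Zfp36l1, Zfp36l2, Btg1, Btg2, Tob1 and Tob2, and 3 subunits of the deadenylase complex itself, which are Cnot1, Cnot6 and Cnot7.

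E14TG2a mouse embryonic stem cells (mESCs), an established line, were grown on gelatin in "2i + LIF" medium and received 1 µM flavopiridol, an inhibitor of the kinase CDK9 that stops productive elongation by RNA polymerase II. After 30, 60, 120 or 240 min by the sample titles, cells from 3 independently passaged cultures were harvested. By the protocol, part of each sample was kept as whole-cell extract (total RNA). The rest was separated into the nuclear, cytosolic (released with digitonin) and membrane-bound fractions. Polyadenylated RNA was sequenced from each of the 48 libraries, 3 in each of 16 groups of a fraction and a time. No genotype, age or other treatment separates the groups, all of which carry the drug, and each deposited value is a gene's ratio to its own fraction's 0 min value, so that 1 means no change and the 0 min libraries themselves are not analysed here.

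Zfp36 proteins are zinc-finger proteins that bind AU-rich elements in 3′ UTRs and bring the CCR4-NOT complex to the mRNA. Btg and Tob proteins carry a shared amino-terminal domain that contacts the deadenylase subunits, and the Tob proteins also bind poly(A)-binding protein. Within the complex Cnot1 is the scaffold, whereas Cnot6 and Cnot7 are catalytic subunits that remove adenosines. Many of the adaptors are known as immediate early genes with short-lived mRNAs, and Zfp36 family mRNAs are known to contain AU-rich elements of the kind their own proteins bind.

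The 3 Zfp36 family mRNAs shared a sequence feature that the choice of genes did not use. In the reference annotation (GRCm38, GENCODE vM21, 1 coding transcript per gene), Zfp36, Zfp36l1 and Zfp36l2 each held 1 copy of the AU-rich nonamer TTATTTATT in the 3′ UTR, and 0 copies were found in the other 7 genes. The nonamer occurred in 7.08% of 14066 listed genes with a 3′ UTR, and in 4.36%, 8.82% and 8.79% of genes with a 3′ UTR of similar length to that of Zfp36, Zfp36l1 and Zfp36l2. The motif was searched on the transcript strand only, each nonamer contains 1 copy of the shorter motif ATTTA, and a match is no evidence of binding. The sites are shown because they distinguish the Zfp36 family from the other members, in the DNA letters of the transcript strand and with the nonamer in capitals.
Zfp36, chr7:28376951-28376979, minus strand: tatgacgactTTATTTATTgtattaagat
Zfp36l1, chr12:80108167-80108195, minus strand: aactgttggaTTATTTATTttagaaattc
Zfp36l2, chr17:84184914-84184942, minus strand: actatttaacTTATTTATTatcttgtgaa

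In this annotation Zfp36 lies on chromosome 7 (28376784 to 28380253), Zfp36l1 on 12 (80107754 to 80113013), Zfp36l2 on 17 (84183931 to 84187947), Btg1 on 10 (96617006 to 96622809), Btg2 on 1 (134075170 to 134079120), Tob1 on 11 (94211454 to 94215495) and Tob2 on 15 (81848272 to 81858796). The subunits Cnot1 (95719451 to 95807464) and Cnot7 (40492540 to 40515847) lie on chromosome 8, and Cnot6 on 11 (49671503 to 49712723). The pentamer ATTTA was present in all 10 members, from 1 copy in Cnot1 to 13 in Cnot6. Zfp36l1 held 9 copies, a number reached by 4.41% of genes with a 3′ UTR of similar length, whereas Tob2 held 4 copies, which 54.2% of such genes reached.

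Of the 10 genes, 8 were listed in every library and entered all tests. Zfp36, the founding member of its family, was listed in 7 of 12 total, 10 of 12 nuclear, 7 of 12 cytosolic and 8 of 12 membrane libraries. Cnot1 was listed in 1 of 48 libraries, at a ratio of 0.356 in nuclear RNA at 240 min, and has no time course here. The absence of a gene from a listing does not show that its mRNA was absent.

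The ratios of a gene in the libraries of a fraction stood in whole-number proportions, which allowed the read numbers behind them to be inferred at between 4160000 and 6260000 reads per library. In each fraction, at least 99.87% of the genes listed in all its libraries had ratios that came out whole within 0.01. Zfp36 had 0 to 6 inferred reads in any library, and no time course was fitted for it. Its listed ratios ran from 0.247 to 0.551 in total RNA (7 values), from 0.190 to 0.597 in nuclear RNA (10 values), from 0.280 to 0.787 in cytosolic RNA (7 values) and from 0.552 to 3.24 in membrane RNA (8 values). All values outside the membrane fraction thus lay below 1, while those in it lay on both sides of 1, at very few reads. Btg2 was the best measured adaptor, with up to 1398 reads, and Cnot6 the best measured subunit, with up to 2090. These numbers are in lowest terms, were derived here and bound counting error only.

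Pou5f1, Sox2, Nanog and Tfcp2l1, 4 of 6 markers of mESCs, were listed in all 48 libraries, and 0 of 4 fibroblast feeder markers were, although 3 of these were listed in at least 1 library and Postn in none. In the nucleus at 30 min the library of replicate 1 stood apart, with a median ratio over genes of 0.555 against 0.934 and 0.805 in the other two. In such bulk RNA, fewer cells and less RNA per cell cannot be told apart. Replicates are independently passaged cultures of a single line, and p-values of levels and steps measure the spread between these cultures. Those of slopes and slope differences also take in the departure of a gene's course from a straight line.

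First, the course of each mRNA after the block of transcription was examined as the slope of its log2 ratio on time. The adaptors of the Btg and Tob families lost nearly all of their mRNA within 240 min, in every fraction. The Zfp36 family split, with Zfp36l1 falling throughout and Zfp36l2 falling and then partly returning everywhere except in cytosolic RNA. Of the catalytic subunits, Cnot6 fell more slowly than the Btg and Tob adaptors, to mean ratios of 0.228 to 0.667 at 240 min, and no slope was called for Cnot7.

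**Figure D1:**
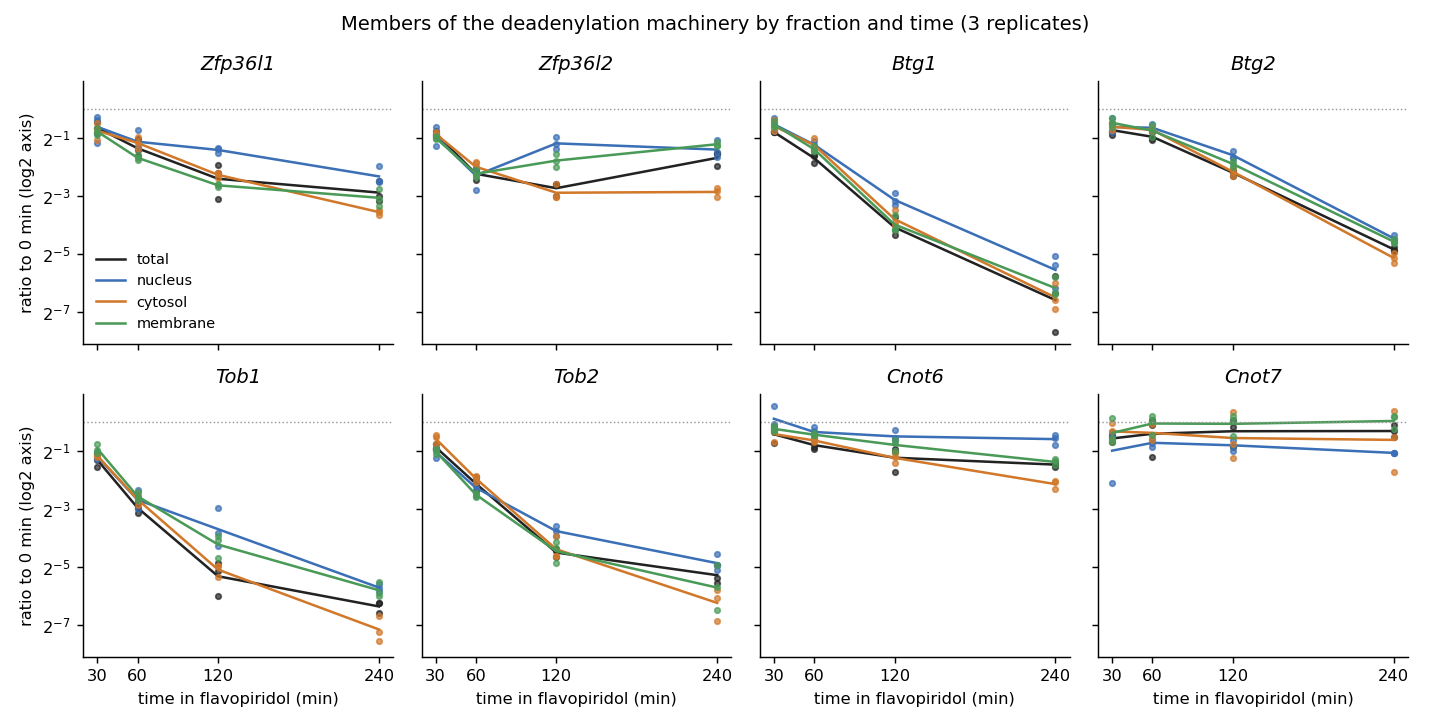
Ratio to 0 min on a log2 axis against time in flavopiridol (min) for the 8 members listed in every library, with each point a library and each line the mean of the log2 ratios of 3 replicates in a fraction. Btg1, Btg2, Tob1 and Tob2 end far below the dotted line at 1, while Zfp36l2 turns upwards after 60 min in nuclear and membrane RNA and Cnot7 scatters around or below the line, with mean ratios of 0.478 to 0.610 in nuclear RNA.

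By slope, 6 of 8 tested members fell in total RNA, 6 in nuclear RNA, 7 in cytosolic RNA and 6 in membrane RNA, and 0 rose (limma, adjusted p under 0.05; at an unadjusted p under 0.05 and with voom weights the number that rose was also 0). A fall was common among all genes after the block. Of all genes tested, 56.9% fell in total RNA, 61.9% in nuclear RNA, 67.1% in cytosolic RNA and 62.2% in membrane RNA, and 3.39%, 3.32%, 2.95% and 4.09% rose. A count of 6 or 7 of 8 is read against these shares, and the steepness of each fall is therefore given beside its place among all genes. The median gene itself sloped by -0.22, -0.30, -0.28 and -0.26 log2 units per hour in these fractions as scaled by the authors. When each library was instead centred on its median gene, 31.0% of genes fell and 28.8% rose in total RNA, 29.2% and 29.6% in nuclear RNA, 32.4% and 29.4% in cytosolic RNA, and 30.9% and 28.3% in membrane RNA.

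Btg1 showed the steepest slope of the set in each of the 4 fractions. In total RNA its ratio was 0.579, 0.580 and 0.569 at 30 min, 0.275, 0.322 and 0.334 at 60 min, 0.0559, 0.0490 and 0.0759 at 120 min, and 0.0124, 0.00489 and 0.0186 at 240 min. No value of a later time overlapped an earlier one. The slope was -1.66 ± 0.13 log2 units per hour (SE; adjusted p = 3.0e-07, limma), steeper than that of all but 0.188% of genes tested, and -1.44 ± 0.09 in nuclear RNA, -1.72 ± 0.10 in cytosolic RNA and -1.62 ± 0.11 in membrane RNA. At 240 min Btg1 rested on 3 to 12 inferred reads per library in any fraction, so its last values carry a large counting error.

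Btg2, the p53-inducible relative of Btg1, followed a course of its own. In total RNA its ratio was 0.538, 0.712 and 0.571 at 30 min and 0.475, 0.571 and 0.500 at 60 min, so that these times overlapped. It was then 0.204, 0.224 and 0.228 at 120 min and 0.0369, 0.0347 and 0.0335 at 240 min, with no overlap. The change from 30 to 60 min was -0.23 ± 0.17 on the log2 scale in total RNA, -0.03 ± 0.19 in nuclear RNA, -0.11 ± 0.14 in cytosolic RNA and -0.27 ± 0.15 in membrane RNA, and passed the test in none of the fractions (limma, adjusted p 0.24 to 0.95). The median gene changed over this step by -0.24, -0.29, -0.14 and -0.29 in the same order. From 120 to 240 min the log2 change of Btg2 was -2.64 ± 0.17 in total RNA and -2.86 ± 0.19, -2.97 ± 0.14 and -2.67 ± 0.15 for nucleus, cytosol and membranes. These step tests were added after the values had been seen. Its overall slope was -1.21 ± 0.06 per hour in total RNA (adjusted p = 1.7e-08, limma).

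Tob1 had the lowest mean ratio of the 8 members at 60 min in each fraction. In total RNA its ratio was 0.340, 0.403 and 0.480 at 30 min, 0.129, 0.114 and 0.145 at 60 min, 0.0348, 0.0158 and 0.0288 at 120 min and 0.0103, 0.0134 and 0.0132 at 240 min. Each time lay below the one before it. Its slope was -1.36 ± 0.18 in total RNA, -1.20 ± 0.11 in nuclear RNA, -1.65 ± 0.14 in cytosolic RNA and -1.30 ± 0.13 in membrane RNA (adjusted p at most 3.2e-05 in each, limma). Tob2, its paralog, sloped by -1.21 ± 0.17, -1.03 ± 0.12, -1.57 ± 0.15 and -1.27 ± 0.16 in the same order (adjusted p at most 3.5e-05, limma). At 240 min the ratio of Tob2 was 0.0214, 0.0241 and 0.0333 in total RNA and 0.0183, 0.00869 and 0.0149 in cytosolic RNA, so that the cytosolic libraries lay below the total ones. These values rested on 14 to 20 inferred reads in the total and 5 to 10 in the cytosolic libraries, and carry a large counting error.

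The members differed in how they changed within the first hour. Between 30 and 60 min Tob1, Tob2 and Zfp36l2 fell in every fraction, with log2 changes of -1.65 to -1.13 (limma, adjusted p 0.0032 to 0.046). Among all genes, 2.32% fell over this step in total RNA, 2.18% in nuclear RNA, 1.89% in cytosolic RNA and 12.7% in membrane RNA. Btg1 and Zfp36l1 passed this test in membrane RNA alone (-0.86 ± 0.21 and -0.90 ± 0.17), and whether their steps differed between fractions was not tested.

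Zfp36l1 fell in every fraction, with a slope nearer to 0 than that of any Btg or Tob member. In total RNA its ratio was 0.557, 0.629 and 0.733 at 30 min and 0.111, 0.126 and 0.180 at 240 min, and in cytosolic RNA it reached 0.0798, 0.0905 and 0.0854. The slope was -0.60 ± 0.11 in total RNA, -0.46 ± 0.07 in nuclear RNA, -0.80 ± 0.05 in cytosolic RNA and -0.60 ± 0.09 in membrane RNA (adjusted p at most 0.00026, limma).

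The reads of Zfp36l1 could not be told apart with certainty from those of an overlapping gene. Gm26669, a long non-coding RNA annotated on the opposite strand, shares 1672 of the 2990 exonic bases of Zfp36l1, including the site of the nonamer, and whether the counting of these libraries used the strand of the reads is not given in the sources used here. Gm26669 had 157 to 663 inferred reads in the total libraries, against 78 to 364 for Zfp36l1. Its slope was -0.59 ± 0.10 in total RNA, -0.48 ± 0.05 in nuclear RNA, -0.84 ± 0.05 in cytosolic RNA and -0.66 ± 0.10 in membrane RNA, close to that of Zfp36l1 in each. The other overlaps are smaller, with 289 exonic bases of Tob2 opposite Gm49476 and 105 of Zfp36l2 opposite AC132455.1, neither of which was listed in any library, and with 125 exonic bases of Zfp36 opposite Gm44710, 247 of Cnot7 opposite Zdhhc2 and 132 of Cnot1 opposite 4930513N10Rik. Gm44710 and Zdhhc2 were listed in all 48 libraries. In the total libraries Zdhhc2 had 227 to 381 inferred reads against 12 to 37 for Cnot7. Gm44710 had 41 to 76 there against 0 to 3 for Zfp36. The few reads of Cnot7 and Zfp36 thus carry the same uncertainty about their strand.

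Zfp36l2 was the adaptor whose mRNA did not keep falling. In total RNA its ratio was 0.535, 0.555 and 0.590 at 30 min, 0.234, 0.185 and 0.222 at 60 min, 0.168, 0.162 and 0.125 at 120 min and 0.257, 0.345 and 0.339 at 240 min. All 3 values at 240 min lay above those at 60 and 120 min. In the membrane fraction it was 0.520, 0.497 and 0.488, then 0.208, 0.197 and 0.233, then 0.252, 0.338 and 0.290, and finally 0.411, 0.457 and 0.426. The 4 times did not overlap, and the lowest was 60 min.

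In the nucleus Zfp36l2 was at 0.412, 0.655 and 0.517 at 30 min, 0.250, 0.144 and 0.236 at 60 min, 0.506, 0.435 and 0.386 at 120 min and 0.481, 0.318 and 0.355 at 240 min. The nuclear ratio was thus back above its 60 min values by 120 min and did not pass the test for a further change (-0.21 ± 0.27, adjusted p = 0.57, limma). In the cytosol it was 0.555, 0.528 and 0.571, then 0.283, 0.206 and 0.272, then 0.122, 0.166 and 0.122, and at 240 min 0.151, 0.123 and 0.141. Here no library of the last 2 times reached those of 60 min.

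The contrast of 240 with 60 min, which was added after these values had been seen, put numbers on the return. On the log2 scale Zfp36l2 changed by +0.55 ± 0.19 in total RNA (adjusted p = 0.029), +0.89 ± 0.27 in nuclear RNA (adjusted p = 0.016), +1.02 ± 0.14 in membrane RNA (adjusted p = 0.00011) and -0.87 ± 0.18 in cytosolic RNA (adjusted p = 0.0015, limma throughout). A rise over this interval was called for 4.64% of genes in total RNA, 3.16% in nuclear RNA and 4.14% in membrane RNA, and a fall for 63.0% in cytosolic RNA. The change in membrane RNA exceeded that in cytosolic RNA by 1.88 ± 0.21 (adjusted p = 2.7e-05), and the change in nuclear RNA exceeded that in cytosolic RNA by 1.76 ± 0.32 (adjusted p = 0.0017, limma), as was called for 9.60% and 11.2% of genes. Among the members, 4 of 8 passed the first test and 5 of 8 the second, always with the lower change in cytosolic RNA.

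The rise did not rest on few reads, since Zfp36l2 went from 46 to 54 inferred reads at 60 min to 119 to 143 at 240 min in the membrane libraries. Its size and calls varied with the scaling and with the cultures included. With libraries scaled to mitochondrially encoded mRNAs the change was 0.14 in total RNA (adjusted p = 0.69), 1.72 in nuclear RNA (adjusted p = 0.0083), 0.45 in membrane RNA (adjusted p = 0.077) and 0.14 in cytosolic RNA (adjusted p = 0.79, limma). The nuclear rise was thus called and larger, and the others were not called. Nuclear minus cytosolic RNA then gave 1.58 (adjusted p = 0.20) and membrane minus cytosolic RNA 0.55 (adjusted p = 0.18, limma), under a scaling in which 17 of 11232 and 10 of 11086 genes were called higher. The median gene itself changed over this interval by -0.58 in total RNA, -0.82 in nuclear RNA, -0.68 in membrane RNA and -0.85 in cytosolic RNA. With each library centred on it, Zfp36l2 changed by 1.14, 1.75 and 1.70 in the first 3 of these and by -0.02 in cytosolic RNA (adjusted p = 0.93, limma), so that its cytosolic fall was that of the median gene. Without replicate 2 or without replicate 3 the calls in total RNA (0.37 and 0.52) and in nuclear RNA (0.77 and 1.04) were lost, as was the difference between nucleus and cytosol without replicate 3 (1.87, adjusted p = 0.079, limma).

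**Figure D2:**
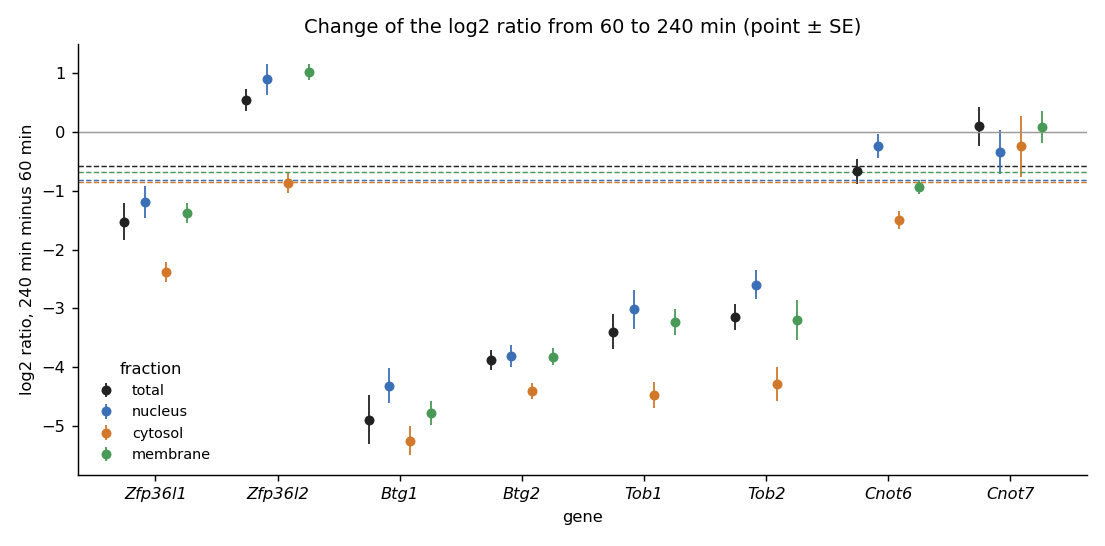
Change of the log2 ratio between 60 and 240 min (point ± SE from limma, 3 libraries at each time) for each member and fraction, with dashed lines at the median gene of each fraction. Zfp36l2 lies above 0 in total RNA, nucleus and membrane fraction and at -0.87 in cytosolic RNA, while Btg1, Btg2, Tob1 and Tob2 lie at -2.60 or lower.

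Over its whole course Zfp36l2 had a slope of -0.11 ± 0.15 in total RNA, 0.03 ± 0.13 in nuclear RNA and 0.07 ± 0.11 in membrane RNA, none of which passed the test (limma, adjusted p 0.55 to 0.87). In the cytosol the slope was -0.49 ± 0.12 (adjusted p = 0.0028, limma). A slope alone therefore misses both its early fall and its return.

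Cnot6, a catalytic subunit of the EEP type, fell more slowly than the Btg and Tob members. Its ratio in total RNA was 0.608, 0.866 and 0.787 at 30 min and 0.358, 0.387 and 0.339 at 240 min, and in nuclear RNA it was 0.947, 1.46 and 0.905 at 30 min and 0.739, 0.680 and 0.581 at 240 min. The slope was -0.28 ± 0.06 in total RNA, -0.50 ± 0.04 in cytosolic RNA and -0.32 ± 0.03 in membrane RNA (adjusted p at most 0.0019, limma). In the nucleus it was -0.16 ± 0.06 (adjusted p = 0.030, limma), with opposite sign when libraries were centred on their median gene (0.15, adjusted p = 0.0092) or scaled to mitochondrial mRNAs (0.03, adjusted p = 0.89). Relative to the median gene of each fraction, Cnot6 thus fell faster in cytosolic RNA and more slowly in nuclear RNA.

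Cnot7, a catalytic subunit of the DEDD type, had 4 to 37 inferred reads per library outside the nucleus and 33 to 103 in it. Its slope was 0.06 ± 0.08 in total RNA, -0.05 ± 0.09 in nuclear RNA, -0.08 ± 0.12 in cytosolic RNA and 0.09 ± 0.07 in membrane RNA (limma, adjusted p 0.28 to 0.64). The ratio spread widely between replicates, for example 0.305, 1.303 and 0.696 in cytosolic RNA at 240 min. As scaled by the authors, no slope of Cnot7 from 30 to 240 min was called, which does not show that there was none. Centred on the median gene, Cnot7 sloped upwards in total (0.29, adjusted p = 0.011), nuclear (0.26, adjusted p = 0.0081) and membrane RNA (0.35, adjusted p = 0.0013, limma). A rise was then called for 28.8%, 29.6% and 28.3% of genes. The cytosolic slope was not called (0.20, adjusted p = 0.18, limma), nor was a slope in any fraction with mitochondrial scaling. In nuclear RNA its level was already lower at 30 min, as given with the 30 min levels.

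**Figure D3:**
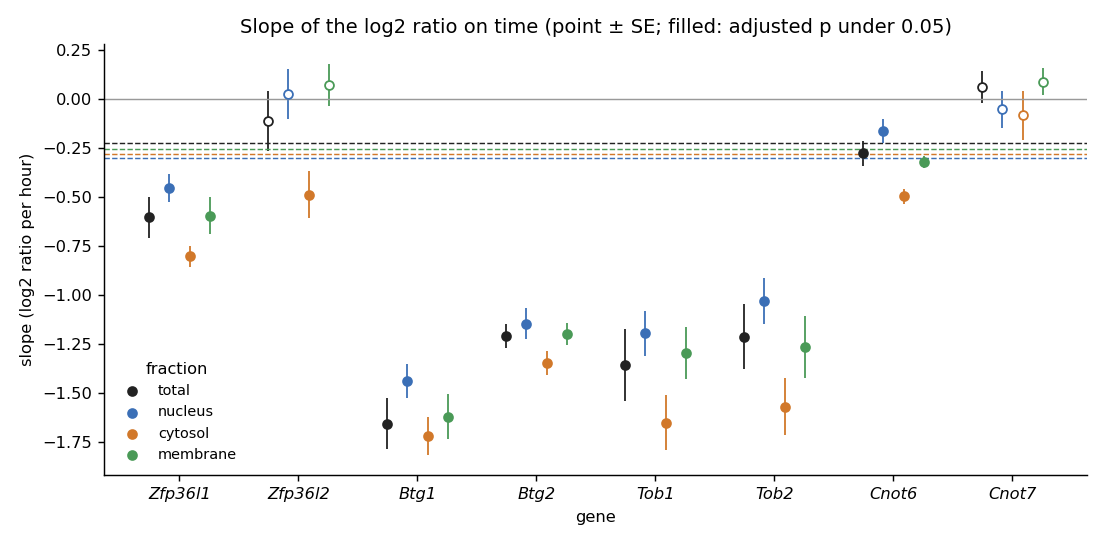
Slope of the log2 ratio per hour (point ± SE from limma over 12 libraries) for each member and fraction, filled where the adjusted p is under 0.05, with dashed lines at the median gene of each fraction. Btg1, Btg2, Tob1 and Tob2 lie between -1.72 and -1.03, Zfp36l1 and Cnot6 lie nearer to 0, and each of the 6 members that fell in all fractions has its lowest point in cytosolic RNA.

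Next, adaptors and deadenylase subunits were set against each other. Of the 6 adaptors tested, 5 fell in total RNA, 5 in nuclear RNA, 6 in cytosolic RNA and 5 in membrane RNA. Their median slope was -1.21 ± 0.03 (SD over 3 replicates) in total RNA, -1.09 ± 0.02 in nuclear RNA, -1.46 ± 0.07 in cytosolic RNA and -1.23 ± 0.10 in membrane RNA. For Cnot6 and Cnot7, 1 of 2 fell in each fraction, and the midpoint of their slopes was -0.11, -0.11, -0.29 and -0.12. The median of the adaptors thus lay below that of all genes in every fraction. The midpoint of the 2 subunits lay above it outside the cytosol and was close to it there, but includes Cnot7 with its few reads. Cnot6 alone was steeper than the median gene in total (-0.28 against -0.22), cytosolic (-0.50 against -0.28) and membrane RNA (-0.32 against -0.26), though not in nuclear RNA (-0.16 against -0.30). With libraries centred on the median gene, its downward slope was called in cytosolic RNA (-0.22, adjusted p = 0.00011, limma). It was not called in total (-0.049, adjusted p = 0.29) or membrane RNA (-0.062, adjusted p = 0.071, limma). The other CCR4-NOT subunits, described below, had medians below that of all genes in each fraction. Because the genes were chosen with earlier results of these data known and number so few, no test was made of the contrast between adaptors and subunits.

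Half-lives were estimated by least squares of a simple exponential decay on the ratios, the form used in the study for each compartment. The level at 0 min was fitted and not fixed at 1. It came out between 0.440 (Zfp36l2) and 1.29 (Tob2) in total RNA and at 1.71 for Tob2 in cytosolic RNA, so the curves miss the known starting value. In total RNA the half-lives were 18.6 ± 3.28 min for Tob1, 24.4 ± 2.35 min for Tob2, 31.1 ± 3.70 min for Btg1, 61.9 ± 12.2 min for Zfp36l1, 63.1 ± 5.46 min for Btg2 and 180 ± 26.5 min for Cnot6 (SD over fits to each of 3 replicates). In this order Zfp36l1 and Btg2 lay within their spread of each other, whereas the other neighbours lay further apart than the larger of their SDs. In the same order, 0.415%, 1.04%, 2.15%, 9.57%, 9.93% and 40.0% of genes had a shorter fitted half-life.

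The median half-life of the 6 adaptors was 46.5 ± 6.14 min in total RNA, 58.5 ± 9.02 min in nuclear RNA, 39.1 ± 1.89 min in cytosolic RNA and 40.9 ± 4.60 min in membrane RNA. The median over all genes was 244, 176, 213 and 219 min. An exponential described Zfp36l2 poorly, with an R squared of 0.154 in total RNA and 0.00278 in nuclear RNA, and no finite half-life in membrane RNA, while in cytosolic RNA it gave 42.4 ± 3.68 min. No finite half-life was found for Cnot7 in total RNA or in membrane RNA. With libraries centred on their median gene the adaptor median was 62.4, 82.4, 59.7 and 64.1 min, and with mitochondrial scaling it was 21.4 min in cytosolic and 27.6 min in membrane RNA, so these values depend on the scaling by more than their SDs.

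At 30 min the ratio of several adaptors was already below 1. In total RNA Tob1 (log2 ratio -1.31 ± 0.21), Tob2 (-0.87 ± 0.15), Zfp36l2 (-0.84 ± 0.13) and Btg2 (-0.73 ± 0.12) were called lower (limma, adjusted p 0.0084 to 0.015), 4 of 8 members against 8.24% of all genes. In the cytosol 5 were called lower (Zfp36l1, Zfp36l2, Btg2, Tob1 and Cnot6; 8.16% of genes), in membrane RNA 5 (Zfp36l1, Zfp36l2, Btg2, Tob1 and Tob2; 7.00%) and in nuclear RNA 6 (Zfp36l1, Zfp36l2, Btg2, Tob1, Tob2 and Cnot7; 35.1%). Without the nuclear library of replicate 1, which stood apart, Cnot7 was still called there (-0.42, adjusted p = 0.028, limma). With libraries centred on their median gene, 1.89% of genes were lower and 0.917% higher at 30 min in total RNA, 16.2% and 18.7% in nuclear RNA, 5.23% and 5.66% in cytosolic RNA, and 4.51% and 4.47% in membrane RNA.

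Btg1, which had the steepest slope, was not called at 30 min in any fraction (-0.80 ± 0.29 in total RNA, adjusted p = 0.10, limma). Its ratios in total RNA were 0.579, 0.580 and 0.569, with a mean of 0.576 against 0.607 for Btg2, which was called. The missing call thus does not show that Btg1 began to fall later. At an unadjusted p under 0.05 all 8 members were lower in total RNA at 30 min, and with voom weights 7 of 8 were called. The shares of all genes under these criteria are not given here, so neither count is read as a result about the members. The SE at 30 min came from 1 estimate of the spread shared by all time points. In total RNA these include 240 min, where Btg1 had 3 to 11 inferred reads. Why Btg1 was not called was not tested. The error of the 0 min level is not part of the test at 30 min, because the same level divides all 3 replicates of a fraction. The calls also need all 3 cultures, since without any 1 replicate 0 members remained called in total RNA, cytosol and membrane fraction. The share of all genes called without a replicate is not given here, so that count says nothing particular about the members. With libraries scaled to mitochondrial mRNAs 0 were called lower in cytosolic RNA, where 0.401% of all genes were then lower and 52.9% higher.

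The fractions were then compared directly by the difference of their slopes. Zfp36l1, Zfp36l2, Tob2 and Cnot6 had a higher slope in nuclear RNA than in cytosolic RNA, by 0.35 ± 0.09 (adjusted p = 0.0083), 0.51 ± 0.18 (adjusted p = 0.044), 0.54 ± 0.19 (adjusted p = 0.043) and 0.33 ± 0.07 (adjusted p = 0.0022, limma) per hour. These are 4 of 8 members against 12.3% of all genes. The 3 fractions of a harvest came from the same cells, and with harvest as a block 7 of 8 members had a higher slope in nuclear RNA than in cytosolic RNA, Btg1, Btg2 and Tob1 being the additional ones (adjusted p 0.011 to 0.025, limma). The share of all genes called with this block is not given here, so that count is not read as a result about the members. Other alternatives ended calls, with 0 to 2 members called without a replicate, 0 with 30, 60 and 120 min only and 1 with a pseudocount of 0.1. For these, too, the share of all genes is not given here.

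Between membrane fraction and cytosol, Zfp36l2 (0.56 ± 0.16, adjusted p = 0.040) and Cnot6 (0.17 ± 0.05, adjusted p = 0.025, limma) had the higher slope in membrane RNA, 2 of 8 against 4.94% of genes. With the replicate number as a block 2 members were called between nucleus and cytosol and 1 between membrane fraction and cytosol. With harvest as a block Cnot6 missed the threshold (adjusted p = 0.053), and with mitochondrial scaling its difference had the opposite sign (-0.12). Between nucleus and membrane fraction 0 of 8 members differed by limma (adjusted p under 0.05), 1 at an unadjusted p under 0.05 and 0 with voom weights, against 6.16% of genes that were lower and 2.19% that were higher in nuclear RNA. Each fraction was scaled on its own by the authors, and when libraries were scaled to mitochondrial mRNAs 0 members had a higher slope in nuclear or membrane than in cytosolic RNA, as did 1 of 11232 and 2 of 11086 genes. Under that scaling 3 members had a higher slope in nuclear than in membrane RNA, against 35.5% of genes.

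To see how the rest of the machinery behaved, 6 lists of related genes were examined, of which 34 of 50 genes could be tested in total RNA. There 25 fell and 1 rose, with a median slope of -0.21 against -0.22 for all genes. In the nucleus 25 of 35 fell and 2 rose, in cytosolic RNA 31 of 35 fell and 1 rose, and in membrane RNA 28 of 34 fell and 1 rose. These shares lie above those of all genes given earlier, while the median slopes of the lists were -0.30, -0.31 and -0.29 in these 3 fractions against -0.30, -0.28 and -0.26 for all genes.

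All 5 tested other CCR4-NOT subunits fell in total RNA, cytosol and membrane fraction, as did all 6 in nuclear RNA, with medians of -0.28, -0.36, -0.33 and -0.33. Cnot6l, the paralog of Cnot6, was the steepest (-0.71 ± 0.06 in total RNA), and Cnot10 had the highest slope (-0.11 ± 0.02). Of the other tail enzymes and poly(A)-binding proteins, 1 of 4 fell in total RNA, 2 of 4 in nuclear RNA, 3 of 4 in cytosolic RNA and 2 of 3 in membrane RNA. Pan3, which recruits the Pan2 nuclease to poly(A), sloped by -1.03 ± 0.12 in total RNA, whereas Pabpc1, the main cytoplasmic poly(A)-binding protein, sloped by 0.02 ± 0.03 (adjusted p = 0.52, limma).

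Among other adaptors 3 of 3 fell in total RNA, 2 of 4 in nuclear RNA, 3 of 4 in cytosolic RNA and 4 of 4 in membrane RNA. Nanos1, an RNA-binding protein that recruits CCR4-NOT, had the steepest slope of all 6 lists in total RNA (-1.39 ± 0.09), and Rc3h1, which recognises stem-loops in 3′ UTRs, the highest slope of this list (-0.32 ± 0.06). Among other proteins that bind AU-rich elements, 2 of 5 fell in total RNA, 3 in nuclear RNA, 4 in cytosolic RNA and 2 in membrane RNA. Tial1 was the steepest in total RNA (-0.49 ± 0.06), while Elavl1, known to stabilise its targets, rose by 0.35 ± 0.07 per hour in total RNA and by 0.37 ± 0.07, 0.30 ± 0.04 and 0.32 ± 0.06 in nucleus, cytosol and membrane fraction (adjusted p at most 0.00067, limma). Its slope was also positive when libraries were centred or scaled to mitochondrial mRNAs, but with the latter it was not called in membrane RNA (0.09 ± 0.07, adjusted p = 0.21, limma).

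Of decapping and 5′ to 3′ decay genes, 4 of 5 fell in total RNA, 4 in nuclear RNA, 5 in cytosolic RNA and 4 in membrane RNA. Dcp1a, an activator of decapping, had the steepest slope in total RNA (-0.84 ± 0.07) and the exonuclease Xrn1 the highest (-0.02 ± 0.05, adjusted p = 0.76, limma). For the exosome and Ski complex 10 of 12 fell in total RNA, 8 of 11 in nuclear RNA, 11 of 12 in cytosolic RNA and 11 of 12 in membrane RNA, between Exosc4 (-0.92 ± 0.06) and Exosc5 (0.07 ± 0.06, adjusted p = 0.35, limma). The median slope of this list was -0.16, -0.23, -0.27 and -0.25 in these fractions, nearer to 0 in each than that of all genes (-0.22, -0.30, -0.28 and -0.26), of which 56.9%, 61.9%, 67.1% and 62.2% fell. The sign of the slopes nearest to 0 depended on the scaling. With libraries centred on their median gene Cnot10 (0.12), Pabpc1 (0.25), Xrn1 (0.21) and Exosc5 (0.30) all sloped upwards in total RNA, and with mitochondrial scaling all sloped downwards (-0.23, -0.10, -0.14 and -0.05).

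**Figure D4:**
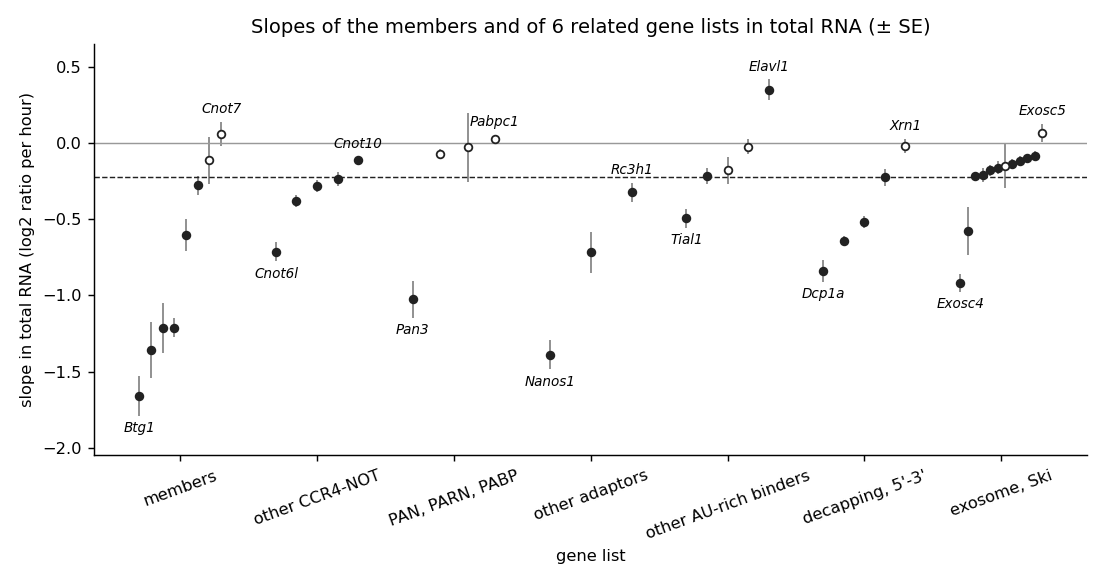
Slope of the log2 ratio per hour in total RNA (point ± SE from limma over 12 libraries) for the members and for 6 lists of related genes, filled where the adjusted p is under 0.05, with a dashed line at the median gene (-0.22). The steepest and the highest gene of each list are named, from Btg1 at -1.66 to Elavl1 at 0.35.

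Finally, the genes whose ratios ran closest to Btg2 and Tob1 over all 48 libraries were identified among 10693 others. Zfp322a (root mean square difference 0.32 log2 units), Hexim1 (0.34), an inhibitor of the kinase that flavopiridol blocks, and Klhl42 (0.38) were closest to Btg2. Klf6 (0.47), Zfp866 (0.54) and Spry2 (0.54) were closest to Tob1. Zfp36 and Cnot1 were not listed in all libraries and have no such neighbours.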

How the data were processed

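Polyadenylated RNA was sequenced as stranded paired-end libraries. According to the submitters' processing notes, reads were processed with STAR 2.7.6 and RSEM 1.3.3 on mm10. The deposited value is a ratio: the authors scaled read counts on long-lived genes within each fraction and divided by the level at 0 min. Sample titles and the study's account of the half-life analysis give the last time as 240 min, the harvest text 180 min, and 240 min was used. All value columns were assigned to a sample.

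Symbols were matched through reference tables (23786 of 23862 IDs). limma 3.58.1 (R 4.3.3; lmFit and eBayes with trend, two-sided, Benjamini-Hochberg over all genes of a fit, adjusted p under 0.05) was run on log2 ratios with no pseudocount for genes listed in all libraries of a fit. Tested were the slope on time in hours, the level at 30 min against 0 and, between fractions, the interaction of fraction and time. The contrast of 240 with 60 min, the step tests, the harvest block and the voom weights on inferred reads were added after the data were seen. Half-lives were fitted in Python 3.11.15 with numpy 2.4.6. Read numbers were inferred from whole-number proportions among the ratios of a fraction. Scripts were tested on simulated data. The members and all lists were chosen with earlier results of these data known. Named were all 10 members, the gene of steepest fall and of highest slope in total RNA of each list, and the 3 genes closest to Zfp36, Btg2, Tob1 and Cnot1.

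Alternatives were a pseudocount of 0.1, other filters on listed genes, 2 other scalings, a replicate block, no trend, each replicate or the nuclear 30 min library of replicate 1 left out, other sets of times, and other forms of the decay fit. Replicate numbers were not taken to pair libraries: the median correlation of deviations between libraries of the same number was 0.015 in total RNA, -0.0071 in nuclear RNA, 0.027 in cytosolic RNA and 0.022 in membrane RNA, and 3 of 18 such pairs in total RNA and 0 in the others exceeded 0.1 (highest 0.19). Fractions of a harvest share their cells by protocol, and their deviations correlated by a median of 0.015 (nucleus and cytosol), 0.044 (membrane and cytosol) and 0.022 (nucleus and membrane). A further sequence motif is not reported here.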

Additional observations from a re-analysis of the deposited data

Results flagged for a closer look

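The effect of time differed between fractions for several members by the test of the difference itself (limma, adjusted p under 0.05). Between nucleus and cytosol the slope was higher in the nucleus by 0.35 log2 units per hour for Zfp36l1, by 0.51 for Zfp36l2, by 0.54 for Tob2 and by 0.33 for Cnot6. Between membrane fraction and cytosol it was higher in the membrane fraction by 0.56 for Zfp36l2 and by 0.17 for Cnot6. The change of Zfp36l2 from 60 to 240 min was higher by 1.76 log2 units in the nucleus and by 1.88 in the membrane fraction than in the cytosol. None of these differences was called with libraries scaled to mitochondrially encoded mRNAs, under which 1 of 11232 genes had a higher slope in the nucleus and 2 of 11086 in the membrane fraction than in the cytosol. The difference of Zfp36l2 from 60 to 240 min between nucleus and cytosol was then 1.58.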

How the results depend on the processing

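Members that fell by slope numbered 4 to 7 under every alternative, and the replicate block left these counts at 6, 6, 7 and 6 (total, nuclear, cytosolic and membrane RNA). Causes of the changes below were not tested. Where the share of all genes under an alternative is not given, a count of members is not read as a result about them. With libraries centred on their median gene, 1, 3 and 2 members rose by slope (total, nuclear and membrane RNA), 1 was higher at 30 min in nuclear RNA, and 1 had a higher slope in nuclear than membrane RNA (3 with mitochondrial scaling). Members lower at 30 min numbered 7 with voom weights (total), 3 with the replicate block (membrane) and 0 with mitochondrial scaling (cytosolic). Without a replicate they numbered 0 to 0 (total, cytosolic and membrane) and 1 to 5 (nuclear). Higher slopes in nuclear than cytosolic RNA numbered 1 (pseudocount), 2 (genes listed in at least 8 of 12 libraries), 0 (mitochondrial scaling), 2 (replicate block), 7 (harvest block), 0 (30, 60 and 120 min) and 0 to 2 (without a replicate). For membrane against cytosolic RNA they numbered 0, 1, 0 and 1 under the first 4, 0 with 3 times and 0 to 0 without a replicate. Without a replicate, 0 to 1 members had a lower slope in nuclear than membrane RNA.

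The change of Zfp36l2 from 60 to 240 min with mitochondrial scaling was 0.14 (total), 1.72 (nuclear, called), 0.14 (cytosolic, opposite sign) and 0.45 (membrane), with differences of 1.58 (nuclear minus cytosolic) and 0.55 (membrane minus cytosolic), and centred it was -0.020 (cytosolic). Without a replicate it ranged from 0.37 to 0.75 (total) and 0.77 to 1.04 (nuclear), and the nuclear minus cytosolic difference from 1.69 to 1.87.

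The median half-life of the adaptors was 34.8 (total) and 49.5 min (nuclear) with the level at 0 min fixed at 1. It was 41.3 (cytosolic) and 48.7 min (membrane) by a line on log2 values, and 31.1, 68.0 and 35.4 min with 3 times (total, nuclear and cytosolic). It was 62.4, 82.4, 59.7 and 64.1 min centred, and 48.04, 21.4 and 27.6 min with mitochondrial scaling (nuclear, cytosolic and membrane). Their median slope, in the order total, nuclear, cytosolic and membrane RNA, was -0.58, -0.54, -0.66 and -0.59 with the pseudocount, -0.98, -0.77, -1.18 and -0.97 centred, -1.33, -0.90, -1.30 and -1.46 with mitochondrial scaling, -1.68, -1.13, -1.74 and -1.66 with 3 times, and -1.72, -1.51, -2.04 and -1.74 with the last time at 180 min. Voom weights gave -1.33 (total) and -1.57 (cytosolic), and genes listed in 8 of 12 libraries -1.03 (nuclear).

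Single genes changed sign as follows. Slopes reversed when centred for Zfp36l2 (0.12, total), Cnot6 (0.15, nuclear) and Cnot7 (0.26, nuclear; 0.20, cytosolic). With mitochondrial scaling they reversed for Zfp36l2 (-0.16, membrane), Cnot6 (0.030, nuclear) and Cnot7 (-0.060, total; 0.14, nuclear; 0.073, cytosolic; -0.14, membrane). With 3 times they reversed for Zfp36l2 (-0.38, membrane) and Cnot7 (0.093, nuclear). Without a replicate the slope ranged from -0.041 to 0.064 for Zfp36l2 (nuclear), from -0.16 to 0.0044 for Cnot7 (nuclear) and from -0.24 to 0.092 for Cnot7 (cytosolic). Mitochondrial scaling reversed the cytosolic level at 30 min of Btg1 (0.12), Btg2 (0.094), Tob2 (0.13), Cnot6 (0.29) and Cnot7 (0.38), the nuclear one of Cnot6 (-0.10; -0.11 to 0.24 without a replicate) and the slope difference of Cnot6 between membrane and cytosolic RNA (-0.12). That of Cnot7 between nuclear and cytosolic RNA ranged from -0.26 to 0.24 without a replicate and was -0.068 without the nuclear 30 min library of replicate 1. Zfp36 and Cnot7 had the fewest inferred reads.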
